A study of Homo sapiens with 6 samples.

Results

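The 39 protein-coding HOX genes of the human genome were examined for peaks of SUMO-2/3, small ubiquitin-related modifiers that are attached to proteins, on chromatin of HL-60, an established human cell line from acute myeloid leukaemia (AML). The genes were chosen by symbol alone (HOX, a letter from A to D and a number) from 19811 protein-coding genes in the GENCODE 44 annotation on GRCh37, whose chromosomes are those of hg19. The 11 HOXA genes lie on chromosome 7 (chr7:27132612-27239710), the 10 HOXB genes on chromosome 17 (chr17:46605888-46806112), the 9 HOXC genes on chromosome 12 (chr12:54332615-54449814) and the 9 HOXD genes on chromosome 2 (chr2:176957449-177055635). Cells were exposed for 2 h to water (mock), to 2 µM cytosine arabinoside (Ara-C, a nucleoside analogue) or to 1 µM daunorubicin (DNR, an anthracycline), and chromatin was precipitated with 2 µg of an antibody to SUMO-2/3 and sequenced. Material from 3 biological replicates was pooled before sequencing, so each condition is 1 library and 1 list of peak positions. No difference between conditions has a replicate check, no test between conditions was made, and the intervals given are 95% exact intervals that cover counting error only. The lists hold 44265 mock, 72279 Ara-C and 33355 DNR peaks, without heights or read numbers, so the depth of each library is unknown and depth cannot be told apart from treatment. They hold no expression either, so neither the HL-60 label nor the activity of any HOX gene could be checked.

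HOX genes encode homeodomain transcription factors that set position along the body axis, and their order along each cluster mirrors their order of use from anterior to posterior. Polycomb complexes keep silent HOX genes repressed, KMT2A (MLL) and its partners keep active ones on, and sites bound by CTCF, an insulator protein, divide the clusters into domains. In myeloid cells the clusters are known mainly for HOXA9 and its cofactor MEIS1, whose persistent expression marks many acute leukaemias. The question taken from the study was whether the drugs change where SUMOylated proteins sit on chromatin, here at the HOX genes.

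Of the positions found in more than 1 list 4 are shown as sequence, because such positions are the only HOX cluster positions at which a peak of 1 library was met by a peak of another. There were 6 of them, and at each the mock and the Ara-C peak shared bases. The bases held by both peaks are given from hg19, plus strand, 5′ to 3′. At HOXA10 the shared bases lie in an annotated UTR, so 30 of them around the motif match are shown. Capitals mark the closest match, with up to 2 mismatches, to the CTCF core consensus of 14 bases on either strand. The match is exact between HOXA7 and HOXA9, has 1 mismatch at HOXA10 and 2 mismatches at HOXB5, HOXC5 and HOXD3. No match stood in the bases upstream of HOXC8.
Between HOXA7 and HOXA9, chr7:27200751-27201000: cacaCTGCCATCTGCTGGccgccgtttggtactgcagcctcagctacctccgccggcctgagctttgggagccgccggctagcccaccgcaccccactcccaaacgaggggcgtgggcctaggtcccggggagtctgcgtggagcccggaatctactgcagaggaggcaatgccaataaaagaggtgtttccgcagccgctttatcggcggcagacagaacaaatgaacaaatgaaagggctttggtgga
HOXA10, UTR, chr7:27219515-27219544: tcggaagtGCGCCATCTCGTGGcggctgcg
Upstream of HOXC8, HOXC6 intron, chr12:54399901-54400000: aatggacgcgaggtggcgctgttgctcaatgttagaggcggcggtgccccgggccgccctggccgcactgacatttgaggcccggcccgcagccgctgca
HOXD3 intron, chr2:177005251-177005500: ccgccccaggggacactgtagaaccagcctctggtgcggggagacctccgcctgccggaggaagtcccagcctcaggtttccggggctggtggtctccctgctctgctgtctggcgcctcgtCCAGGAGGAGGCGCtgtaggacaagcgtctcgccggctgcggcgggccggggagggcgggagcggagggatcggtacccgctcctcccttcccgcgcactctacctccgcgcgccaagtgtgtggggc

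The start sites of the HOX genes were examined before the clusters as a whole. A gene counted when a peak touched the window from 2 kb upstream to 1 kb downstream of the transcription start site (TSS) of any basic protein-coding transcript. Other annotated starts, such as the outermost of HOXA9, HOXB7 and HOXD10, were not used. With the starts of every annotated transcript, added after the data had been seen, 7, 9 and 5 HOX genes had a peak in mock, Ara-C and DNR, against 31.6%, 39.1% and 14.9% of coding genes. Such a peak stood at 12 of the 39 HOX genes in at least 1 list, 30.8%, against 43.8% of all coding genes. In mock-treated cells 6 HOX genes had a window peak, 15.4% (5.86 to 30.5%), against 25.3% of all coding genes. Under Ara-C 7 did, 17.9% (7.54 to 33.5%), against 30.8% of all coding genes. Under DNR 4 did, 10.3% (2.87 to 24.2%), against 8.42% of all coding genes. The HOX share was thus below the share of all coding genes in the mock and Ara-C lists and not in the DNR list, and in each list the interval of the HOX share includes the value of all coding genes. The DNR order turned with other settings. With peaks of at least 200 bp 0 HOX genes had a DNR window peak, against 4.28% of coding genes. With every annotated start the 5 HOX genes with a DNR peak are a share below the 14.9% of coding genes. The genes are neighbours rather than independent, and the windows of HOXB3 and HOXB4 and those of HOXC4 and HOXC6 share bases.

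**Figure D1:**
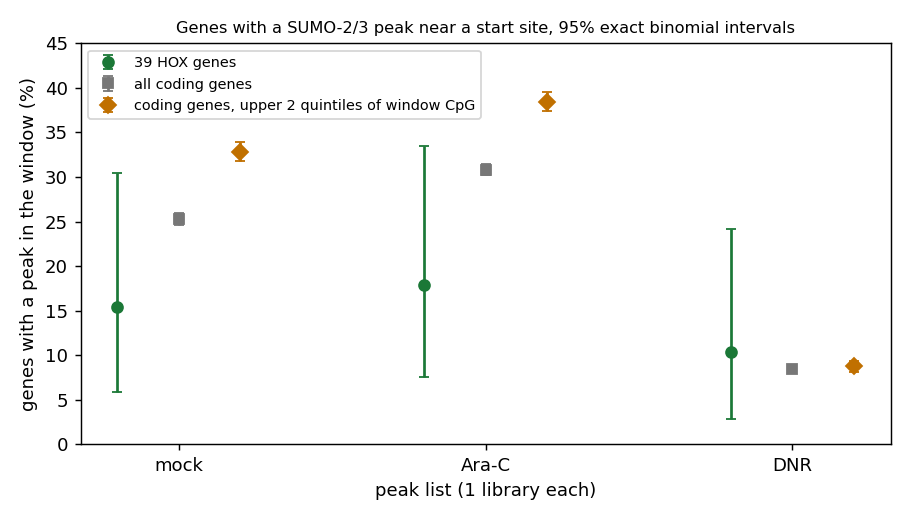
Share of genes (%, vertical axis) with a SUMO-2/3 peak from 2 kb upstream to 1 kb downstream of a start site, for each peak list (horizontal axis), with 95% exact binomial intervals. The 39 HOX genes (circles) sit at 15.4% and 17.9% in mock and Ara-C, below all coding genes (squares, 25.3% and 30.8%) and below coding genes in the upper 2 quintiles of window CpG (diamonds, 32.8% and 38.4%), while the DNR values of the 3 groups lie between 8.42% and 10.3%.

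Most HOX promoters are CpG-rich, and over all coding genes CpG-rich windows held mock and Ara-C peaks more often. The median observed to expected CpG ratio of the windows was 0.60 for HOX genes and 0.52 for all coding genes, and their median GC content was 56.5% and 51.3%. When coding genes were divided into quintiles by this ratio, 25 HOX genes fell in the upper 2. Of these 25, 3 had a mock peak, 12% (2.55 to 31.2%), against 32.8% of the 7924 coding genes in those quintiles. Under Ara-C 6 of the 25 did, 24% (9.36 to 45.1%), against 38.4%. Under DNR 3 did, 12% (2.55 to 31.2%), against 8.73%. The interval of the mock share of these CpG-rich HOX genes ends below the share of coding genes of like CpG content, while the Ara-C and DNR intervals include theirs. It rests on 3 genes with a peak, and HOX genes are neighbours rather than independent. In the middle quintile 1 of 6 HOX genes had a mock peak, 16.7% (0.421 to 64.1%), against 29.3%. In the quintile below that 2 of 8 did, 25% (3.19 to 65.1%), against 22.2%. Among the 13 HOX genes in the uppermost quintile, 0 had a mock peak (0 to 24.7%), against 33.3% of coding genes there, 2 an Ara-C peak, 15.4% (1.92 to 45.4%), against 39%, and 1 a DNR peak, 7.69% (0.195 to 36%), against 8.51%. Among the 12 in the quintile below, 3 had a mock peak, 25% (5.49 to 57.2%), against 32.3%, 4 an Ara-C peak, 33.3% (9.92 to 65.1%), against 37.9%, and 2 a DNR peak, 16.7% (2.09 to 48.4%), against 8.96%.

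HOXA genes with a window peak were HOXA4, HOXA5, HOXA10 and HOXA11, 4 of 11. HOXA4, a central gene of the cluster, had a DNR peak of 150 bp at chr7:27170301-27170450 that covers its start site and touches a coding exon. HOXA5, a regulator of lung and blood development, had an Ara-C peak of 150 bp at chr7:27183801-27183950, with its midpoint 575 bp upstream of the start. HOXA10, which acts in myeloid progenitors, had a mock peak of 400 bp at chr7:27219351-27219750 and an Ara-C peak of 300 bp at chr7:27219401-27219700, both centred 330 bp downstream of the nearest start, in a UTR, and no DNR peak. HOXA11, a limb and uterine gene, had an Ara-C peak of 200 bp at chr7:27224901-27225100, with its near edge 50 bp upstream of its start and its midpoint 27 bp from the start of HOXA11-AS, its antisense transcript, so that the peak cannot be assigned to either strand. HOXA9, the gene best known from leukaemia, had no window peak in any list. Near it lay a DNR peak of 200 bp at chr7:27203151-27203350 over a HOXA9 coding exon, centred 1826 bp downstream of a start, and a DNR peak of 150 bp at chr7:27208001-27208150 in an intron of the gene, centred 2919 bp upstream of the nearest start used. A mock peak of 150 bp at chr7:27212351-27212500 also lay in a HOXA9 intron, where it touches an exon of HOXA10.

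HOXB genes with a window peak were HOXB3 and HOXB5, 2 of 10. HOXB3, an anterior gene, had a mock peak of 150 bp at chr17:46650251-46650400, centred 1060 bp downstream of a start, in an intron. HOXB5, a central gene, had a peak in all 3 lists. Its mock and Ara-C peaks had the same ends, chr17:46671251-46671450, and were centred 209 bp upstream of the start. Its DNR peak, at chr17:46670951-46671100, lay on the other side of the start, 116 bp downstream, over a coding exon, with 150 bases between it and the mock peak. The HOXB5 window therefore held a peak in every list, with the DNR peak at a different place. That DNR peak is 150 bp wide, the shortest that the calling allows. Over the genome 3.38% of mock peaks met a DNR peak, so a DNR peak apart from the mock peak is common.

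HOXC genes with a window peak were HOXC5, HOXC6 and HOXC13, 3 of 9. HOXC5 also had a peak in all 3 lists. The mock peak at chr12:54426501-54426700 and the Ara-C peak at chr12:54426501-54426650 shared a left edge and were centred 234 bp and 259 bp upstream of the start. The DNR peak, at chr12:54425201-54425350, was centred 1559 bp upstream, with 1150 bases between it and the others. HOXC6 had a mock peak of 150 bp at chr12:54422851-54423000, 701 bp downstream of a start. HOXC13, which acts in hair and nail, had a DNR peak of 150 bp at chr12:54332301-54332450, 240 bp upstream of its start and inside an intron of its antisense gene HOXC13-AS.

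HOXD genes with a window peak were HOXD8, HOXD10 and HOXD12, 3 of 9, and none of the 9 had a DNR peak (0 to 33.6%), against 8.42% of all coding genes. HOXD8 had an Ara-C peak of 200 bp at chr2:176993401-176993600, 922 bp upstream of its start. HOXD10, a limb gene, had an Ara-C peak of 200 bp at chr2:176980751-176980950, 656 bp upstream of the start used here and in an intron of the annotated gene, which begins further upstream. HOXD12, also a limb gene, had a mock peak of 200 bp at chr2:176962351-176962550 whose near edge lay 1973 bp upstream, just inside the window. The 3 HOXD peaks were thus each in 1 list, and each lay upstream of the nearest start used.

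**Figure D2:**
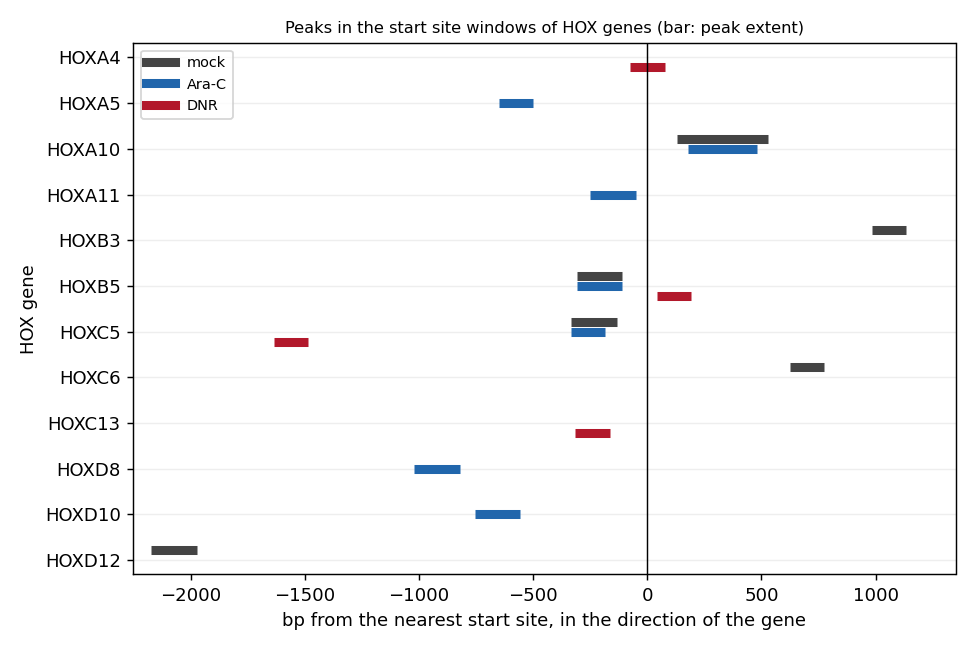
Position of each peak in the start site windows of the 12 HOX genes that had one, as bp from the nearest start site in the direction of the gene (horizontal axis), with peak extent as the bar and list as the colour. Mock and Ara-C bars coincide or overlap at HOXA10, HOXB5 and HOXC5, while the DNR bars at HOXB5 and HOXC5 stand apart from them.

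The remaining 27 HOX genes had no window peak in any list: 7 HOXA, 8 HOXB, 6 HOXC and 6 HOXD genes. By position in the cluster, of the 8 anterior genes (paralogue groups 1 to 3) 1, 0 and 0 had a window peak in mock, Ara-C and DNR. Of the 15 central genes (groups 4 to 8) 3, 4 and 3 did. Of the 16 posterior genes (groups 9 to 13) 2, 3 and 1 did. The central genes had the highest share in each list, but the intervals of the 3 positions overlap (in mock, 0.316 to 52.7%, 4.33 to 48.1% and 1.55 to 38.3%). Of all coding genes, 25.3% had a mock peak, 30.8% an Ara-C peak and 8.42% a DNR peak. For every position and list the interval includes that value, so no position was distinguishable from all coding genes. Of the 6 HOX genes with a mock window peak, 3 also had an Ara-C window peak (HOXA10, HOXB5 and HOXC5), against 62.3% of all coding genes with a mock peak, and 2 also had a DNR window peak (HOXB5 and HOXC5), against 13.9%. A peak in all 3 lists stood at 2 of the 39 HOX genes, 5.13%, and at 2.49% of all coding genes.

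Over whole clusters with their flanks, peaks were denser than over the genome. Each cluster was taken with 20 kb on both sides, 683 kb in all. The 4 windows held 23 mock peaks (14.6 to 34.5), 35 Ara-C peaks (24.4 to 48.7) and 16 DNR peaks (9.15 to 26). The genome's density would give 10.6, 17.3 and 7.97 peaks over the same length. Density was 3.37 mock peaks per 100 kb against 1.55 over the genome, 5.13 Ara-C peaks against 2.53 and 2.34 DNR peaks against 1.17, which is 2.18, 2.03 and 2.01 times the genome's density. In each list the interval of the HOX density (2.14 to 5.06, 3.57 to 7.13 and 1.34 to 3.81 per 100 kb) lies above the genome value. For mock and Ara-C this also held without flanks, with flanks of 50 kb and for peaks of at least 200 bp. For DNR it did not hold without flanks, where 11 peaks gave 1.05 to 3.77 per 100 kb against 1.17, nor for peaks of at least 200 bp, where 7 peaks gave 0.412 to 2.11 against a genome value of 0.51. Coding gene bodies with 20 kb on both sides are a closer background, and against them the 3 values were 1.84, 1.76 and 1.84.

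By cluster, HOXA held 3 mock, 8 Ara-C and 4 DNR peaks in 147 kb. HOXB held 7, 11 and 6 peaks in 240 kb. HOXC held 6 peaks of each list in 157 kb. HOXD held 7 mock and 10 Ara-C peaks and 0 DNR peaks in 138 kb. The fold over the genome's density was lowest for HOXA in mock (1.32) and highest for HOXD in mock (3.27) and Ara-C (2.86), and for HOXC under DNR (3.27). This order depends on the flanks: without them mock density was highest at HOXC (5.12 per 100 kb, against 4.07 at HOXD) and DNR density at HOXA (2.8, against 2.56 at HOXC), with Ara-C density highest at HOXD (8.15). With flanks of 50 kb Ara-C density was highest at HOXB (5.33, against 5.05 at HOXD), mock density at HOXD (3.53) and DNR density at HOXC (3.22). In every list the intervals of the 4 clusters overlap, HOXD under DNR (0 to 2.67 per 100 kb) included. Of genome windows as long as the cluster, 32.7% held at least as many mock peaks as HOXA, 18.6% at least as many as HOXB, 12.5% at least as many as HOXC and 6.8% at least as many as HOXD. The values for Ara-C were 13.2%, 17.2%, 25.5% and 6.21%. Those for DNR were 14.6%, 14.4% and 6.79% for HOXA, HOXB and HOXC. None of the clusters thus stands alone in the genome, although these windows were not matched for gene density.

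**Figure D3:**
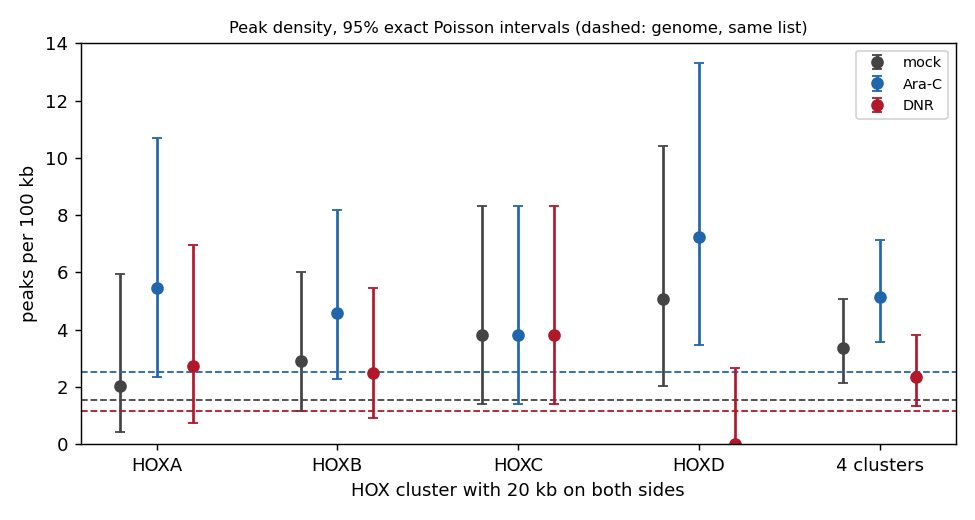
SUMO-2/3 peaks per 100 kb (vertical axis) in each HOX cluster with 20 kb on both sides and in the 4 clusters together (horizontal axis), with 95% exact Poisson intervals. Dashed lines are the genome's density in the same list (1.55 mock, 2.53 Ara-C, 1.17 DNR). HOXD stands at 5.07 mock and 7.24 Ara-C peaks per 100 kb and at 0 for DNR.

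Peak numbers in the drug lists were set against the mock list. The Ara-C list held 1.52 times as many peaks over the 4 clusters as the mock list (0.874 to 2.7), against 1.63 times over the genome. The DNR list held 0.696 times as many (0.343 to 1.38), against 0.754. Neither drug's ratio over the clusters was distinguishable from its ratio over the genome. By cluster the Ara-C ratio was 2.67 at HOXA, 1.57 at HOXB, 1 at HOXC and 1.43 at HOXD, each with an interval that includes 1.63.

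HOXD was the cluster without a DNR peak. The exact interval of this count of 0 reaches up to 3.69 peaks, more than the 1.61 peaks that the genome's DNR density would give, and 38.1% of genome windows of this length also held 0 DNR peaks. The ratio of DNR to mock peaks at HOXD was 0 against 7 mock peaks, with an upper bound of 0.694, below the 0.754 of the genome. The bound holds only with this flank and width: it was 1.51 without flanks, 1.11 with flanks of 50 kb and 1.51 for peaks of at least 200 bp, all above the genome value. This bound is 1 of 4 cluster intervals for the drug, and those of HOXA, HOXB and HOXC include the genome value. The stretch with no DNR peak around HOXD ran for 210 kb, chr2:176868801-177078500, and held 8 mock and 11 Ara-C peaks. The stretch was delimited by the absence of DNR peaks, so its length is a description. Its mock peaks included 3 near the posterior end, from 4574 bp upstream of HOXD13, which patterns digits, to 2073 bp upstream of HOXD12, as well as 1 in a UTR of EVX2, the homeobox gene next to the cluster.

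**Figure D4:**
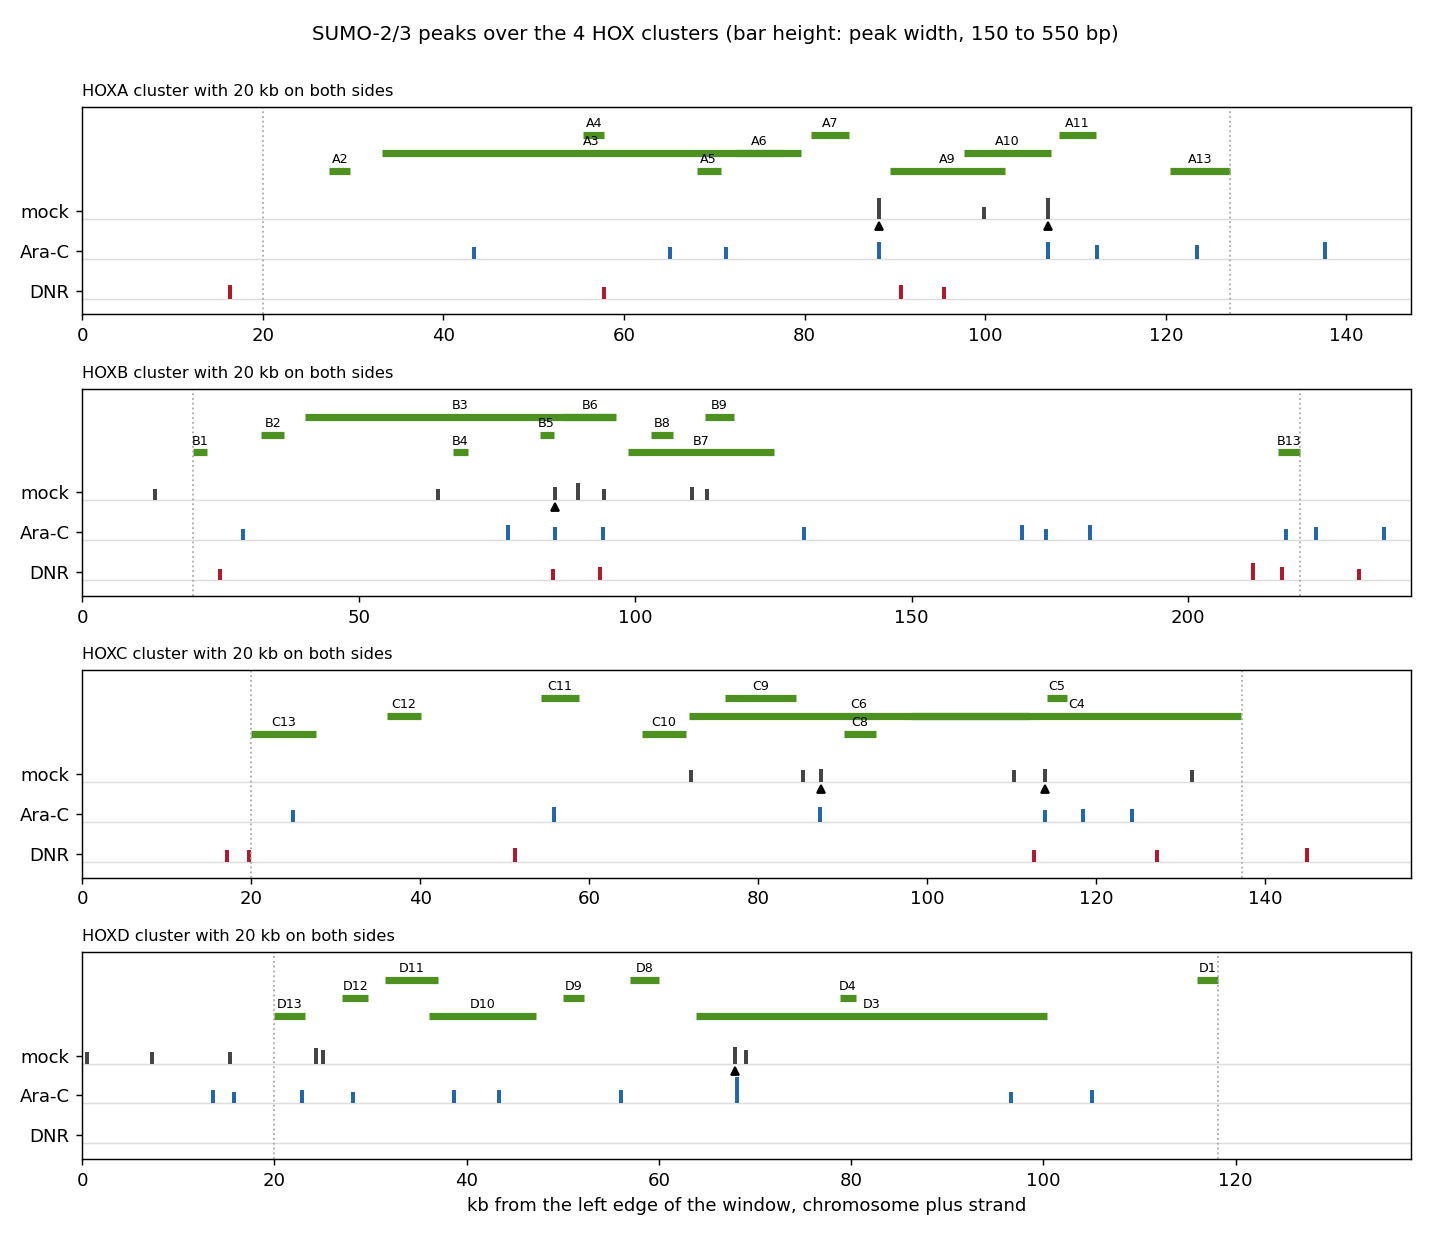
Map of the 4 HOX clusters with 20 kb on both sides (dotted lines mark the cluster ends), in kb from the left edge of the window (horizontal axis), with HOX genes in green by letter and number (1 anterior HOXA gene is not drawn) and peaks of the 3 lists in rows, the height of a bar standing for peak width. Triangles mark the 6 mock peaks that share bases with an Ara-C peak, the DNR row of HOXD is empty, and the 98.4 kb between HOXB9 and HOXB13 hold 0 mock, 4 Ara-C and 1 DNR peaks.

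In the HOXB cluster, HOXB13, a posterior gene of prostate and colon, lies apart from the others. The 98.4 kb between HOXB9 and HOXB13 held 0 mock peaks (0 to 3.69), 4 Ara-C peaks (1.09 to 10.2) and 1 DNR peak (0.0253 to 5.57). The genome's density would give 1.52, 2.49 and 1.15. All 4 Ara-C peaks lay in the bodies of long non-coding RNA genes, 1 in LINC03057 and 3 in LINC02086. The counts of the 3 lists in this gap are all within counting error of the genome's density.

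Peaks of the different lists mostly fell at different positions of the clusters. Of the 23 mock peaks, 6 shared at least 1 bp with an Ara-C peak, 26.1% (10.2 to 48.4%), against 16.1% of all mock peaks. Conversely, 6 of the 35 Ara-C peaks met a mock peak, 17.1% (6.56 to 33.6%), against 9.82% of all Ara-C peaks. None of the 16 DNR peaks met a mock or an Ara-C peak (0 to 20.6% for each). Over all DNR peaks, 4.48% met a mock peak and 5.52% an Ara-C peak. From the other side, 0 of 23 mock peaks met a DNR peak (0 to 14.8%), against 3.38% of all mock peaks, and 0 of 35 Ara-C peaks did (0 to 10%), against 2.54%. Each of these background shares lies inside the interval of the HOX share, so a difference from the genome was not detectable at this number of peaks.

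Merging peaks that share bases gave 68 regions in the 4 windows, of which 17 were in mock alone, 29 in Ara-C alone, 16 in DNR alone and 6 in mock and Ara-C. The share in a single list was 91.2%, and 93.7% of the 140027 regions of the genome were in a single list. HOXA and HOXC had 2 shared regions each and HOXB and HOXD had 1 each. At an intron of HOXB6 a mock peak at chr17:46680151-46680300 began at the base after an Ara-C peak at chr17:46679951-46680150, without a shared base, and a DNR peak at chr17:46679401-46679600 lay 350 bases from the Ara-C peak, over an exon of the antisense gene HOXB-AS3. This intron and the HOXB5 promoter were the places where peaks of all 3 lists came closest together.

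In the clusters the mock peaks met by an Ara-C peak were all of 200 bp or more. Among mock peaks of 150 bp, the shortest that the calling allows, 0 of 12 met an Ara-C peak (0 to 26.5%), against 6.41% of all mock peaks of that width. Among those of 200 to 250 bp, 3 of 7 did, 42.9% (9.9 to 81.6%), against 18.5%. Among those of 300 bp or more, 3 of 4 did, 75% (19.4 to 99.4%), against 58.6%. The order by width in the HOX clusters is thus that of the genome, with intervals that include the genome's values. The mock peak of 300 bp that was not met covers a HOXB6 coding exon at chr17:46675451-46675750. Width was the only measure of strength in the lists.

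**Figure D5:**
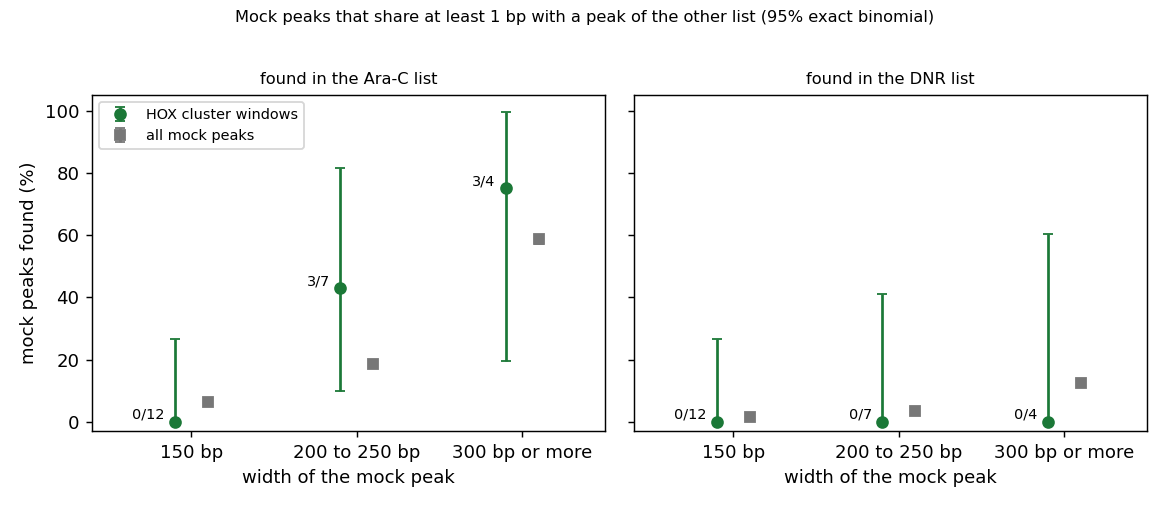
Share of mock peaks (%, vertical axis) that share at least 1 bp with an Ara-C peak (left) or a DNR peak (right), by width of the mock peak (horizontal axis), in the HOX cluster windows (circles, counts beside them) and over all mock peaks (squares), with 95% exact binomial intervals. The HOX values for Ara-C run 0 of 12, 3 of 7 and 3 of 4 with width, and all HOX values for DNR are 0.

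The 6 shared regions lay at places of different kinds. The first lies between HOXA7 and HOXA9, outside any annotated gene, with a mock peak of 400 bp at chr7:27200601-27201000 and an Ara-C peak of 300 bp at chr7:27200751-27201050. The HOXA10 and HOXB5 regions and the HOXC5 region were described with their genes. Another region lies in an intron of HOXC6 upstream of HOXC8, a central gene, with a mock peak at chr12:54399901-54400100 centred 2769 bp upstream of HOXC8 and an Ara-C peak at chr12:54399751-54400000. The last lies in an intron of HOXD3, with a mock peak of 300 bp at chr2:177005201-177005500 and an Ara-C peak of 550 bp at chr2:177005251-177005800, the widest peak of any list in the 4 clusters. The distance from these regions to the nearest DNR peak was 150 bases at HOXB5, 1150 at HOXC5, 2100 at the HOXA7 to HOXA9 region, 11200 at HOXA10, 25100 upstream of HOXC8 and 72700 in HOXD3.

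Further peaks were the widest of their list and cluster, or as wide as the widest. The HOXA window held an Ara-C peak of 300 bp at chr7:27250101-27250400, intergenic and 10540 bp upstream of HOXA13, a limb and genital gene. The HOXB window held Ara-C peaks of 250 bp at chr17:46662701-46662950, in a HOXB3 intron, and at chr17:46755801-46756050 and chr17:46768051-46768300, both in LINC02086. Its widest DNR peak, of 300 bp at chr17:46797451-46797750, lay 8512 bp downstream of the start of HOXB13 and in no annotated gene. The HOXC window held a DNR peak of 200 bp at chr12:54457501-54457700, beyond HOXC4.

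CTCF sites are a known feature of the clusters, and the CTCF core consensus was therefore searched in the peaks on both strands. The 4 windows held 1 exact match in all, on the minus strand at chr7:27200755-27200768, between HOXA7 and HOXA9, and both the mock and the Ara-C peak covered it while no DNR peak did. Exact matches therefore stood in 1 mock peak, 4.35% of 23 (0.11 to 21.9%), and in 1 Ara-C peak, 2.86% of 35 (0.0723 to 14.9%). The DNR list had none among 16 (0 to 20.6%). Over all peaks the shares were 2.55%, 1.56% and 0.555%, and in windows 2000 bp beside all peaks they were 0.0633%, 0.0457% and 0.0705%. With 1 mismatch the mock share in the HOX clusters was 17.4%, the Ara-C share 5.71% and the DNR share 0%, against 7.63%, 4.8% and 1.64% of all peaks. A match counted for a peak when it lay wholly inside it, which leaves out 1 at the edge of a mock peak in the HOXC window. The 4 mock peaks with such a match were the HOXA7 to HOXA9 peak, the HOXA10 peak, a peak of 200 bp in a HOXB7 intron at chr17:46696001-46696200 and the EVX2 peak at chr2:176944601-176944750. Every interval of a HOX share includes the share of all peaks.

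A search with 2 mismatches was added after the data had been seen. It found a match in 8 mock peaks, 34.8% of 23 (16.4 to 57.3%), and 9 Ara-C peaks, 25.7% of 35 (12.5 to 43.3%), with none in the 16 DNR peaks, against 15.1%, 10.9% and 6.16% of all peaks and 4.45%, 4.19% and 4.41% of the windows beside them. Here the mock and Ara-C intervals in the HOX clusters begin above the share of all peaks. HOX peaks are richer in GC than other peaks, and the part of base composition in these looser matches was not tested. In the windows 2000 bp beside the HOX peaks, whose base composition was not measured, 3 of 46, 1 of 70 and 2 of 32 held such a match. Of the 6 regions shared by mock and Ara-C, 5 held it, and of the 62 regions in a single list 7 did. The shared regions are wider (200 to 600 bp) and so offer more bases to match. A match is a run of letters and does not show that CTCF was bound.

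HOX cluster peaks were richer in GC and CpG than other peaks. Their mean width was 202 bp for mock, 210 bp for Ara-C and 178 bp for DNR, against 195, 192 and 186 bp over all peaks. Peaks of 150 bp made up 52.2% of the mock, 31.4% (16.9 to 49.3%) of the Ara-C and 56.2% of the DNR peaks in the clusters, against 52.1%, 51.5% and 56.3% over all peaks, so that the Ara-C peaks of the clusters were less often of the shortest width. Their median GC content was 59.3%, 55.0% and 53.1%, against 45.5%, 44.7% and 44.7%, and their median CpG ratio was 0.62, 0.51 and 0.56, against 0.21, 0.19 and 0.18. The GC content of the whole clusters was not measured, and whether composition moves with the calling of peaks there was not tested.

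Between the first and the last HOX gene of a cluster lay 19 of the 23 mock peaks. The same held for 30 Ara-C peaks of 35 and for 11 DNR peaks of 16. Exons or UTRs of coding genes were touched by 6 mock, 7 Ara-C and 4 DNR peaks, which is 26.1%, 20% and 25% of the cluster peaks against 13%, 11.4% and 8.87% of all peaks. Introns alone were touched by 11, 14 and 4 cluster peaks, which is 47.8%, 40% and 25% against 38.4%, 39.8% and 40.2%. Outside coding genes lay 6, 14 and 8 cluster peaks, which is 26.1%, 40% and 50% against 48.5%, 48.8% and 50.9%. Among these 9 exact intervals, 8 include the share of all peaks, and the interval for mock peaks outside coding genes (10.2% to 48.4%) ends just under it. The median distance from peak midpoint to the nearest HOX start was 3.69 kb, 3.66 kb and 2.9 kb. Within 1 kb of a HOX start lay the midpoints of 4 mock, 7 Ara-C and 3 DNR peaks. The shares, 17.4%, 20% and 18.8%, stand against 10.6%, 8.1% and 3.64% of all peaks within 1 kb of a coding gene start. The mock interval (4.95% to 38.8%) includes the share of all peaks, and those of Ara-C (8.44% to 36.9%) and DNR (4.05% to 45.6%) begin just above it. The windows were drawn around 39 HOX genes in 683 kb, where start sites are denser than over the genome. The share of all peaks is therefore an unlike background here, and a preference of peaks for HOX starts was not tested.

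Non-coding genes of the clusters were counted by the same window rule. Of 31 long non-coding RNA genes in the 4 windows, 1 had a mock peak, 3.23% (0.0816 to 16.7%), against 13.1% of the 18702 such genes of the genome. Ara-C peaks stood at 9, 29% (14.2 to 48%), against 17.3%, and DNR peaks at 5, 16.1% (5.45 to 33.7%), against 6.76%. Each interval includes the genome share, so no list was distinguishable from it. HOXB-AS3 was the gene with a mock peak, and it had one in all 3 lists. HOTAIR, the HOXC transcript known for its link to Polycomb, had an Ara-C peak at chr12:54368301-54368550, 315 bp from a start, and a DNR peak at chr12:54363701-54363900, and no mock peak. HAGLR and HAGLROS had an Ara-C peak at chr2:177042401-177042600, 55 bp from a start of HAGLROS and 10896 bp upstream of HOXD1. The others were HOXA-AS2, HOXA11-AS, LINC03057, LINC02086 and ENSG00000242407 under Ara-C, and HOXA-AS3, HOXA10-AS and HOXC13-AS under DNR. Of the 7 miRNA genes, MIR196A2 had a peak in mock, MIR615 in mock and Ara-C, and MIR3185 in Ara-C and DNR. These 2, 2 and 1 genes stand against 7.49%, 10.1% and 4.77% of all 3043 miRNA genes, and the intervals (3.67 to 71%, 3.67 to 71% and 0.361 to 57.9%) include those shares. The counts rest on 1 library each and on a few peaks, some of which lie in the window of more than 1 gene.

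Genes that act with or on HOX proteins were counted by the window rule of the coding genes, and the intervals of the groups overlap in every list. The TALE homeodomain cofactors, which bind DNA with HOX proteins, had a window peak at 1 of 9 genes in each list, and PBX3 was that gene in all 3, while MEIS1 had none. Among 10 activators of HOX transcription, 4 had a mock peak (KMT2D, WDR5, RBBP5 and KDM6A), 3 an Ara-C peak (KMT2D, RBBP5 and KDM6B) and 0 a DNR peak. KMT2D, a histone methyltransferase, had 1 mock peak and 5 Ara-C peaks, while KMT2A had none. Among 16 Polycomb genes, 7 had a mock peak, 43.8% (19.8 to 70.1%), 9 an Ara-C peak, 56.2% (29.9 to 80.2%), and 1 a DNR peak, 6.25% (0.158 to 30.2%). JARID2, RING1, PCGF2, CBX2 and CBX8 had a peak in both mock and Ara-C, EZH1 and CBX7 in mock, and PHC2 in Ara-C and DNR. EED and PHC1 were among those with an Ara-C peak alone. Read against all coding genes (25.3%, 30.8% and 8.42%), the Polycomb share was above in mock and Ara-C with an interval that includes the background in mock and in Ara-C. Among 8 architectural genes, 2, 3 and 1 had a peak (STAG1 and STAG2 in mock, SMC3, STAG1 and NIPBL under Ara-C, STAG2 under DNR), and CTCF itself had none. Among 8 ParaHOX and HOX-linked homeobox genes, the mock peak of PDX1, a pancreatic factor, was the only one in any list.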

How the data were processed

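SUMO-2/3 ChIP-seq was analysed in HL-60 cells as 3 peak lists, 1 per condition. The deposited values are positions (chromosome, start and end), on hg19. The authors aligned single-end reads with CASAVA 1.8.2 and used the Pasha package to keep unique reads, extend them (210 bp in mock and Ara-C, 220 bp in DNR), filter piled-up reads (threshold 5 in mock, 4 in the drug libraries), count them in bins of 50 bp, scale the libraries and subtract the input. The authors' caller kept stretches over a value of 32, bridging gaps up to 100 bp and dropping stretches not above 100 bp, so 150 bp is the shortest peak. Because the threshold is fixed, depth and scaling move the number of peaks, and the depth per library is not given in the sources used here. The 3 input libraries were not analysed here.

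Starts were read as 1-based and the last base as the listed end minus 1. Peaks on the mitochondrial chromosome (1, 2 and 1) were left out. Genes came from GENCODE 44 lifted to GRCh37, with 55870 start sites of 19811 coding genes. Every HOX gene with a window peak was named, and the related genes came from fixed lists. The members and lists were chosen with earlier results of these data known. Shares carry exact Clopper-Pearson and counts exact Poisson intervals at 95%, and no p-value was computed. The counts of coding genes with a window peak were checked against bedtools 2.31.1 with 0 differences, and the window step was tested on simulated data, where it found 229 of 229 planted genes among 19811. Sequences and the CTCF core consensus were read from GRCh37 with pysam 0.24.0. The quintiles were formed from the CpG ratio of all coding gene windows. Alternatives covered the window, the flank, a width of at least 200 bp, the background, the overlap rule and the motif. Computations used Python 3.11.15, numpy 2.4.6, scipy 1.17.1 and matplotlib 3.10.9. Some genes and sequences are not reported here.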

Additional observations from a re-analysis of the deposited data

How the results depend on the processing

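Of 93 alternative values over 30 results, 76 stayed within 1.5 times a count or within the interval of a share or fold, and 17 did not. With the window ending at the TSS, HOX genes with a mock peak fell from 6 to 3, against 20.6% of all coding genes. Requiring peaks of at least 200 bp left 0 HOX genes with a DNR window peak, against 4.28% of coding genes. It also left 11 mock and 7 DNR peaks over the 4 clusters. By cluster it left 5 Ara-C and 2 DNR peaks at HOXA, 3 mock and 3 DNR peaks at HOXB, 2 mock and 2 DNR peaks at HOXC and 4 mock peaks at HOXD. The fold over the genome's density under Ara-C then became 2.87, and it stayed at 2.17 in mock and 2.01 under DNR. Fewer peaks follow from the rule itself, since peaks of 150 bp are removed. Without the flanks HOXC held 3 DNR peaks and HOXD 4 mock peaks, because the others lie outside the genes, and with flanks of 50 kb HOXD had 1 DNR peak. Allowing 2 mismatches moved the share with the CTCF core consensus to 34.8% in mock and 25.7% under Ara-C, as the looser rule admits more matches. Other overlap rules left 0 DNR matches, except that 1 mock, 2 Ara-C, and, from the other side, 1 and 2 DNR peaks had a neighbour within 500 bp. No paired analysis was possible because there is 1 pooled library for every treatment. The limits are the lack of replicates, the unknown depth, the fixed calling threshold and counts of 0 to 11 peaks in each cluster and list.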
